A study of Mus musculus with 2 samples.

Results

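The genes described are 9 of the 32285 in the feature list: the cyclooxygenases Ptgs1 and Ptgs2, the terminal synthases Ptges, Ptgis and Ptgds, the catabolic enzyme Hpgd, and the prostaglandin receptors Ptger2, Ptger4 and Ptgfr. They were matched by gene symbol, and all 9 were found in both libraries. Unsorted cells came from the injured left Achilles tendon of C57BL/6 males, 8 to 10 weeks old, and were profiled with the 10x Genomics 3' v3 chemistry. Mice of both groups had a burn over 30% of the body surface together with cutting of the tendon, and tissue was taken 7 days later. The control group had no radiation, and the irradiated group had 1 dose of 7 Gy through a collimator 2 cm wide. The labels describe arms of 10 mice irradiated on day 1 or day 3 after surgery. The series text names day 3 in a way that could mean the day of irradiation, and it remains uncertain which arm was sequenced and how many mice each library pools. Each group is 1 library, so treatment and library cannot be told apart, and no test between groups was possible. Intervals given with values are 95% and cover counting error only.

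Prostaglandins are made from arachidonic acid, which phospholipases free from membranes. Cyclooxygenases turn it into a common precursor, Ptgs1 being the form present in many resting tissues and Ptgs2 the form induced in inflammation. Terminal synthases then make prostaglandin E (Ptges), prostacyclin (Ptgis) or prostaglandin D (Ptgds), and Hpgd inactivates prostaglandins. Ptger2 and Ptger4 encode receptors for prostaglandin E that raise cyclic AMP, and Ptgfr encodes the receptor for prostaglandin F. Cyclooxygenase inhibitors, like radiotherapy, are used in patients to prevent heterotopic ossification, the bone that forms in soft tissue after injuries of this kind.

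The promoters of the cyclooxygenases and of Ptges are shown because Ptgs2 and Ptges were both called higher in macrophages and monocytes of the irradiated library, and Ptgs1 was not. Each run is the 250 bases before the annotated start, 5′ to 3′ on the gene's own strand, from RefSeq on GRCm38.p6, and capitals mark the motifs found. Motifs were searched on both strands. An E-box was searched as CACGTG. The core of a cyclic AMP response element, to which CREB proteins bind, was searched as CGTCA. A site of the type bound by C/EBP proteins was searched as TTGCGCAA. A GC box, to which Sp1 binds, was searched as GGGCGG. The TATA box near many starts was searched as TATAAA.
Ptgs2, chr1:150099781-150100030, + strand: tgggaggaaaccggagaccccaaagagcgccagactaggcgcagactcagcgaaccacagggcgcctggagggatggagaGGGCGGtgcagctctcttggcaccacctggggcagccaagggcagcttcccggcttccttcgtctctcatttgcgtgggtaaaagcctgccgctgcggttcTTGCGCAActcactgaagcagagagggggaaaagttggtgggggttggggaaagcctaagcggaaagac
Ptges, chr2:30903298-30903547, - strand: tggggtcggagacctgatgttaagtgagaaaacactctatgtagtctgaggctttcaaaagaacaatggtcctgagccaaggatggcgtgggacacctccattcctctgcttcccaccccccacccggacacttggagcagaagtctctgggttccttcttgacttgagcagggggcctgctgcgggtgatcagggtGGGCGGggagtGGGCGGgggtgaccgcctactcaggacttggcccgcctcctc
Ptgs1, chr2:36230176-36230425, + strand: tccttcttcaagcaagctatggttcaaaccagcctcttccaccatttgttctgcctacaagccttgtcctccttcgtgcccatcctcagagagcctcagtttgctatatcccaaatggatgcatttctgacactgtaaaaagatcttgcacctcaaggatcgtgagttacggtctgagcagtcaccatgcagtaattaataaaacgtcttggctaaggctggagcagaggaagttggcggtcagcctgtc
The Ptgs2 run holds TTGCGCAA, beginning 69 bases before the start, and 1 GC box beginning 170 bases before it. TTGCGCAA is in 0.164% of the 32851 windows of the same length in the table, and the GC box in 32.7%. In the 50 bases after the annotated start, which are not printed, Ptgs2 also holds CGTCA from base 14 and CACGTG from base 17, overlapping each other. Over the 300-base windows CGTCA is in 20.8% and CACGTG in 7.15% of the table. The Ptges run holds 2 GC boxes, beginning 53 and 42 bases before the start, and the Ptgs1 run holds none of the 5 motifs. Among members not printed, the 250 bases before the start hold GC boxes in Hpgd, Ptger4 and Ptgfr, and no motif in Ptgds and Ptger2. In macrophages and monocytes, of these genes with GC boxes, Hpgd was called lower and Ptger4 was not called. Of the genes with no motif, Ptgds was called lower there, and Ptger2 and Ptgs1 were not called. A link between motifs and calls was not tested. A match is a description of the letters and not a measured binding site. In the GENCODE M21 annotation of the same assembly, Ptgs2 spans chr1:150100031-150108227 and Ptgs1 chr2:36230426-36252272, both starting where the printed runs end. Ptges spans chr2:30889471-30929863 there, so that annotation also holds a start farther upstream than the RefSeq one used for the run. Of the 9 genes, 8 matched the table. The other members span chr2:167191805-167240604 (Ptgis), chr2:25466709-25470046 (Ptgds), chr8:56294585-56321043 (Hpgd), chr14:44988195-45003820 (Ptger2), chr15:5206661-5244187 (Ptger4) and chr3:151796502-151837630 (Ptgfr).

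After filtering, 8711 cells remained in the control library (median 13251 UMIs, unique molecule counts) and 7116 in the irradiated library (median 10139). They formed 30 clusters, of which 27 were named from marker genes. The 11 classes included keratinocytes, 24.3% of control and 17.9% of irradiated cells, so both samples held skin cells. Mesenchymal cells were 26.6% and 8.85% of cells, macrophages and monocytes 23.4% and 38.0%, and neutrophils 9.30% and 17.5%. Tendon genes were present in mesenchymal cells, where 7 of 7 tendon markers had UMIs in each library (summed levels of 1667 and 2788 CPM). The libraries shared 32 cell barcodes, 21 of them among kept cells. Names rest on transcripts alone. In neutrophils most control cells lay in cluster 1 (83.8%) and most irradiated cells in cluster 6 (53.1%), and in mesenchymal cells most control cells lay in clusters 3 and 5 (35.4% and 31.0%) and most irradiated cells in cluster 7 (51.6%).

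Levels are CPM, a gene's UMIs summed over a class and scaled to the same total UMIs in every class and library (1 UMI being 1 captured transcript end), and they are compared between cells and libraries, not between genes. A gene was called higher or lower where the irradiated over control ratio was at least 1.5-fold, its interval left out equality and the class held at least 20 UMIs of it over both libraries together. Ratios were limited to 5 classes, those where both libraries had 200 cells or more. Over all kept cells, with control before irradiated, Ptgs1 was at 30.6 and 37.1 CPM, Ptges at 33.5 and 56.0 CPM and Ptgis at 10.8 and 11.9 CPM. Ptgds had a log2 ratio of 1.05. Hpgd was at 17.1 and 18.4 CPM, Ptger2 at 2.02 and 4.88 CPM and Ptger4 at 21.7 and 27.4 CPM. These totals also move with the cell classes captured. Of 45 gene and class pairs, 35 had enough UMIs. Of these, 16 were called higher in the irradiated library, 7 lower and 12 neither. Over all genes tested, the share called higher ranged from 5.67% in neutrophils to 11.9% in mesenchymal cells. The share called lower ranged from 3.87% in endothelial cells to 19.5% in neutrophils.

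**Figure D1:**
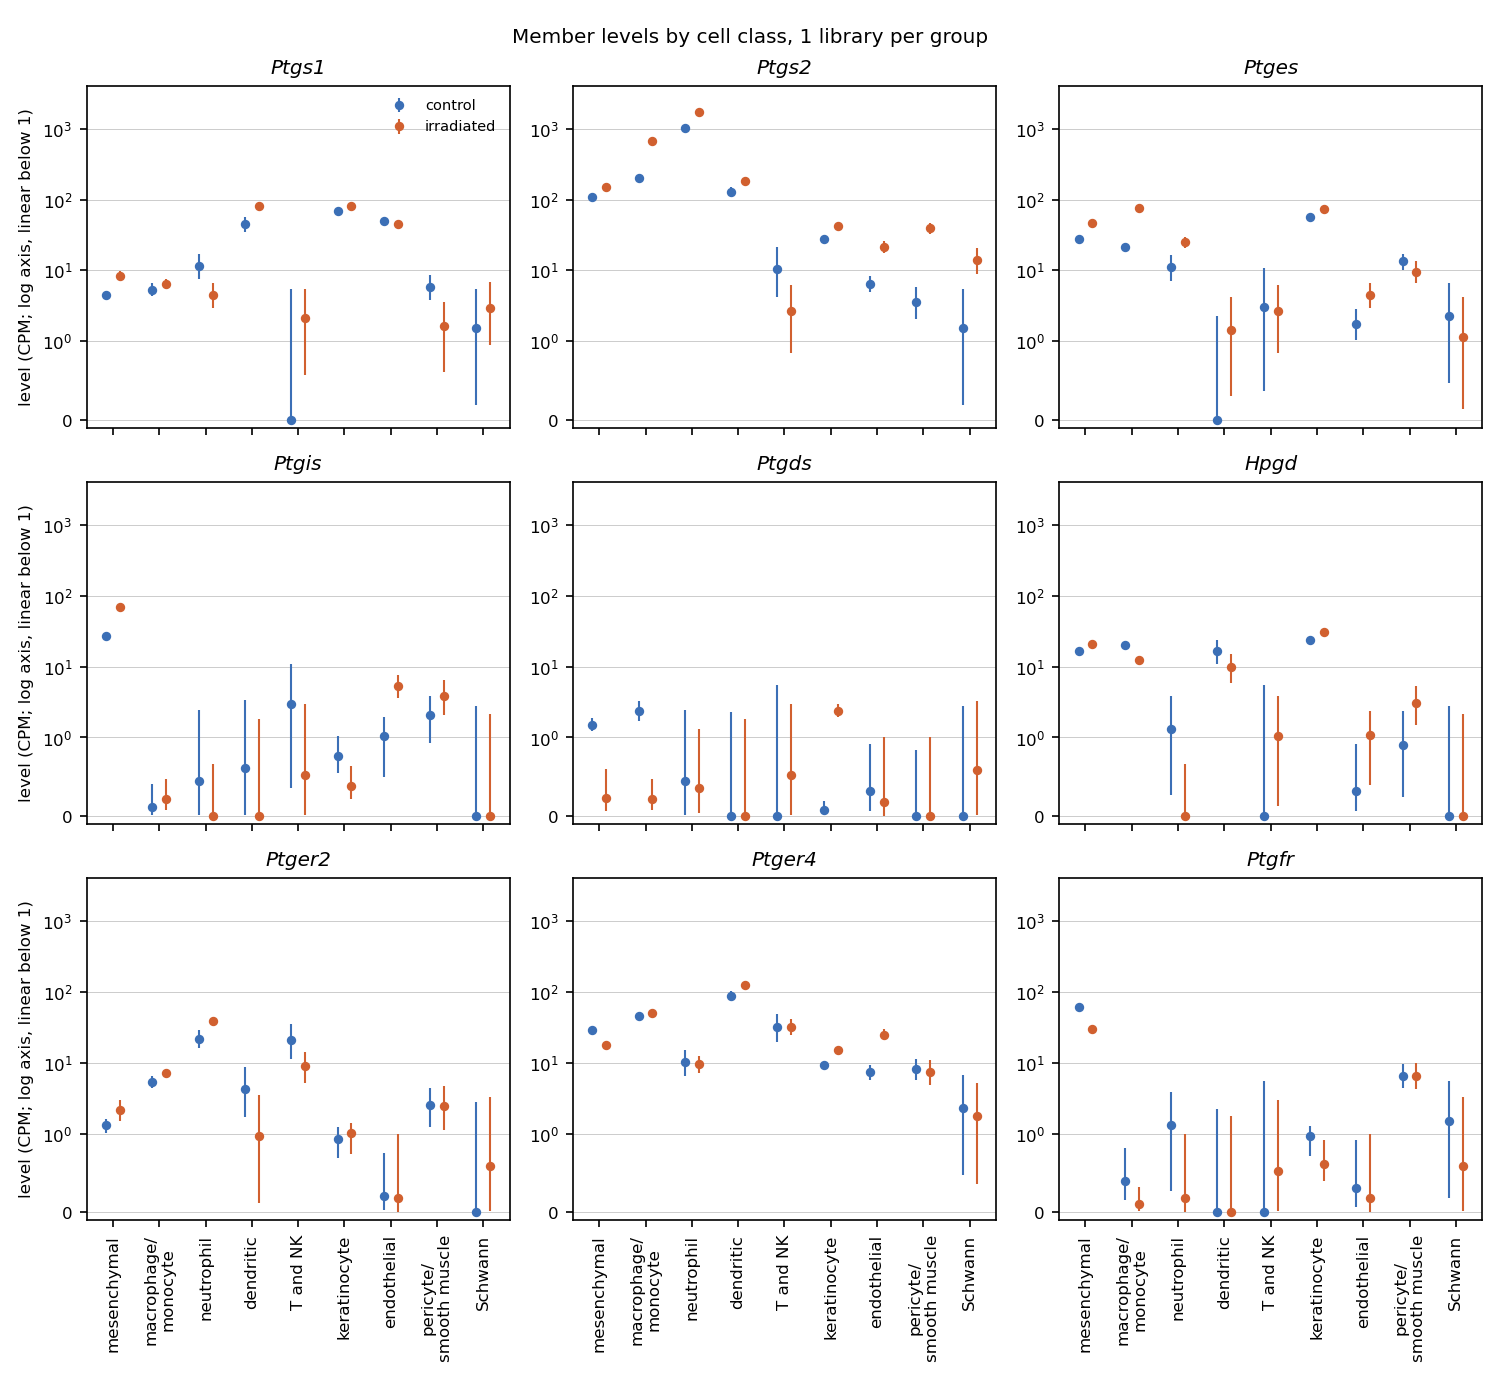
Level of each gene (CPM, logarithmic axis, linear below 1) in 9 cell classes of the control (blue) and irradiated (orange) library. Points are summed levels of 1 library each and bars are 95% Poisson intervals; Ptgs2 is highest in neutrophils (1025 and 1711 CPM), and Ptgis and Ptgfr are highest in mesenchymal cells.

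Ptgs2, the inducible cyclooxygenase, was the member with the largest change over whole libraries among those that were higher, going from 90.8 to 310.1 CPM (log2 ratio 1.77). Its level was highest in neutrophils in both libraries (1025 and 1711 CPM), followed by macrophages and monocytes (201 and 681 CPM). Dendritic cells (130 and 184 CPM) and mesenchymal cells (108 and 152 CPM) came next. The dendritic and mesenchymal intervals did not overlap in either library (113 to 148 against 105 to 110 CPM in the control). Keratinocytes held 27.7 and 42.0 CPM. T and NK cells held 10.5 and 2.64 CPM, from 7 and 5 UMIs.

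The class that held most Ptgs2 UMIs differed between the libraries. Mesenchymal cells held 46.0% of control but 7.85% of irradiated UMIs, whereas macrophages and monocytes held 24.9% and 56.3%. Neutrophils held 16.3% and 28.8%. These shares depend on how many cells of each class were captured. With each cell thinned to 2000 UMIs, 21.4% (19.6 to 23.3) of control and 35.4% (33.5 to 37.2) of irradiated macrophages and monocytes had a Ptgs2 UMI. The same share was 61.4% and 65.4% in neutrophils, with overlapping intervals and only 438 of 810 control and 1081 of 1247 irradiated neutrophils deep enough to count. In T and NK cells, a class with little of the gene, it was 0.870% and 0.422%; their median depth before thinning was 4320 and 6220 UMIs, against 7770 and 9769 in macrophages and monocytes. Without thinning, the macrophage and monocyte shares were 37.5% and 52.0%.

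**Figure D2:**
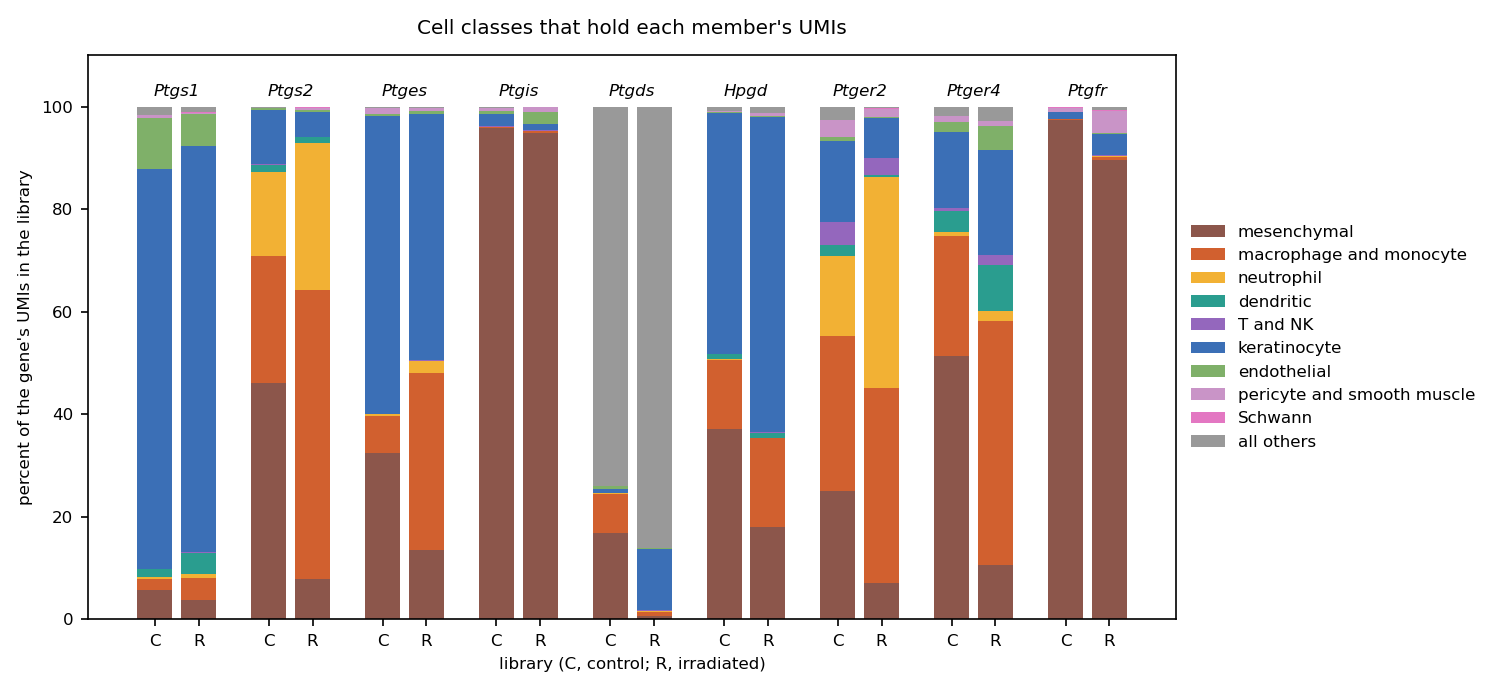
Percent of each gene's UMIs that lay in each cell class, for the control (C) and irradiated (R) library, with each bar summing to 100. Macrophages and monocytes hold 24.9% of control and 56.3% of irradiated Ptgs2 UMIs, while mesenchymal cells hold most Ptgis UMIs (95.9% and 94.8%) and Ptgfr UMIs (97.3% and 89.6%) in both.

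In macrophages and monocytes, Ptgs2 and Ptges were both higher in the irradiated library. Ptgs2 went from 3531 to 18589 UMIs, 201 to 681 CPM, a log2 ratio of 1.76 (1.71 to 1.81). Ptges, the synthase that acts after it towards prostaglandin E, went from 21.2 to 75.5 CPM, a log2 ratio of 1.83 (1.67 to 2.00). Ptgds and Hpgd were called lower, so 2 of 7 genes with enough UMIs were higher and 2 lower, against 6.17% and 11.8% of all genes tested in the class. The median log2 ratio of the 7 was 0.27, beside -0.12 over all genes.

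Cluster 12, led by Cxcl3, Arg1, Mmp12 and Il1b, had the highest level of both genes in the class. It held 139 control and 451 irradiated cells, 6.82% and 16.7% of the class. Ptgs2 in it was 864 and 2759 CPM, a log2 ratio of 1.68 (1.58 to 1.77). Ptges in it was 261 and 417 CPM, a log2 ratio of 0.68 (0.50 to 0.86), and was at most 13.6 CPM in the other 4 clusters of the class. The cluster held 27.6% and 67.0% of the class's Ptgs2 UMIs and 78.8% and 91.5% of its Ptges UMIs. In the other 4 clusters the Ptgs2 log2 ratio passed 1.5-fold in cluster 9 (Ctsk and Mmp9, 1.35) and cluster 2 (0.74), and was 0.55 in cluster 0 and 0.44 in cluster 13 (Ly6c2 and Chil3). Ctsk and Mmp9 are on the osteoclast marker list, and the top genes of cluster 9 held 2 markers of that list and 2 of the macrophage list. Without cluster 12 the class's log2 ratio was 0.79 for Ptgs2 and 0.69 for Ptges, and with clusters weighted alike in both libraries it was 1.16 and 0.66. Both calls held under each of the 17 alternative settings tried for them.

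**Figure D3:**
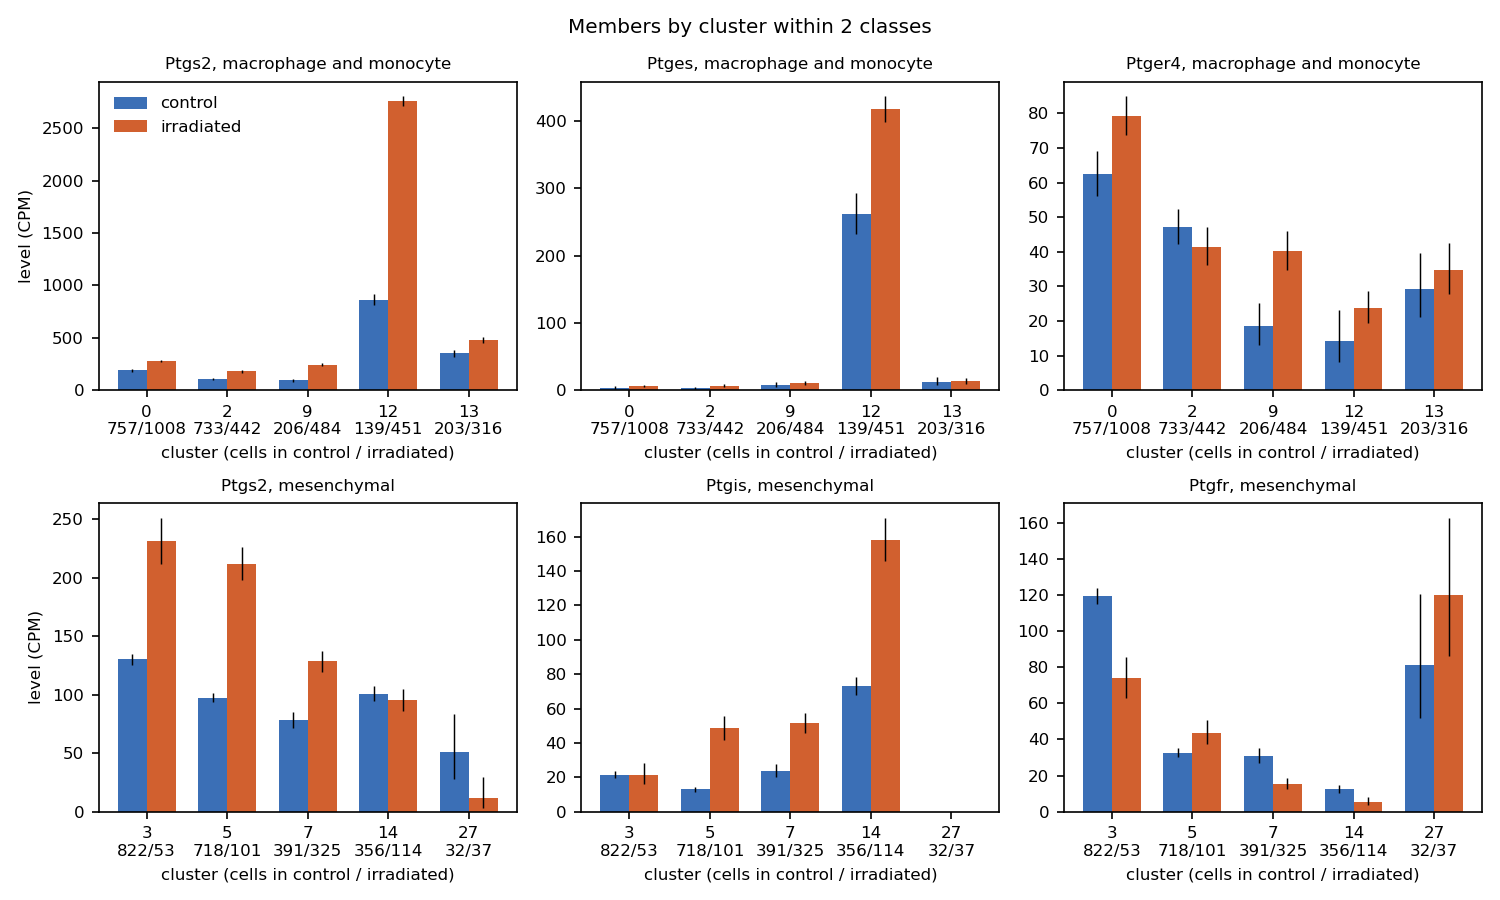
Level (CPM) of Ptgs2, Ptges and Ptger4 in the 5 macrophage and monocyte clusters, and of Ptgs2, Ptgis and Ptgfr in the 5 mesenchymal clusters, control (blue) and irradiated (orange), with 95% Poisson intervals and the number of cells in each library under each cluster. Cluster 12 stands above the other macrophage clusters for Ptgs2 and Ptges in both libraries, and cluster 3 holds 822 control but 53 irradiated cells.

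Over the class as a whole, the 2 genes were also seen in the same macrophages. At 2000 UMIs per cell, 6.99% (4.73 to 9.88) of control cells with a Ptgs2 UMI also had a Ptges UMI, against 1.38% (0.857 to 2.10) of cells without one. In the irradiated library the shares were 18.0% (15.5 to 20.6) and 3.08% (2.30 to 4.03). These shares pool all clusters of the class, of which cluster 12 held 78.8% of control and 91.5% of irradiated Ptges UMIs. Whether the genes go together within a cluster was not tested. The intervals overlapped in mesenchymal cells (4.64% and 4.53% of control cells, 14.6% and 9.80% of irradiated cells) and in neutrophils (1.49% and 4.14%, then 3.96% and 4.28%).

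In neutrophils Ptgs2, Ptges and Ptger2 were called higher at class level, but none of these 3 calls held with the clusters weighted alike. Ptgs2 went from 1025 (983 to 1067) to 1711 (1677 to 1746) CPM, a log2 ratio of 0.74 (0.67 to 0.81). Within cluster 1 it was 934 and 1036 CPM, a log2 ratio of 0.15, and within cluster 6, led by Ccl3 and Ccl4, it was 1432 and 2039 CPM, a log2 ratio of 0.51. Neither cluster alone passed 1.5-fold, and with clusters weighted alike the class ratio was 0.32. Ptges was 11.1 and 24.9 CPM (log2 ratio 1.16) and Ptger2 was 21.7 and 38.5 CPM (0.83), and with clusters weighted alike they were 0.57 and 0.25. Ptgs1, at 26 and 25 UMIs, was called lower at -1.36, and this call was lost with a stricter cell filter (-0.80) and without cluster 1 (-0.02). Of 5 genes with enough UMIs, 3 were higher and 1 lower, against 5.67% and 19.5% of all genes. The median of the 5 was 0.74, beside -0.28.

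Mesenchymal cells had 4 of 9 genes called higher and 3 lower, against 11.9% and 7.25% of all genes. The median log2 ratio was 0.50, beside -0.03. Ptgis, the prostacyclin synthase, was the clearest of these, at 26.7 (25.4 to 28.0) and 70.5 (66.5 to 74.6) CPM, a log2 ratio of 1.40 (1.29 to 1.51). Mesenchymal cells held 95.9% and 94.8% of all Ptgis UMIs. Its highest level was in cluster 14, which is led by collagens and the tendon gene Thbs4, at 73.0 and 158 CPM. Its log2 ratio was 1.12 there, 1.91 in cluster 5 and 1.12 in cluster 7, and it was not called in cluster 3 (0.01, interval -0.44 to 0.42). Genes on the opposite strand overlap Ptgis, Ptger2 and Ptger4, and whether reads were counted by strand is not given in the sources used here.

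Ptges in mesenchymal cells was 28.0 and 47.3 CPM (log2 ratio 0.75), with log2 ratios of 0.94 in cluster 3, 1.11 in cluster 5 and 0.44 in cluster 7, the last under 1.5-fold. The Ptges log2 ratio was 1.06 in cluster 27, of 32 and 37 cells. In cluster 14 Ptges was not called (11.2 and 13.9 CPM, 0.31, interval -0.19 to 0.79). Ptgs2 did not pass 1.5-fold in the class (0.50, interval 0.43 to 0.57). Within clusters its log2 ratio was 0.83 in cluster 3, 1.12 in cluster 5 and 0.71 in cluster 7, and -0.08 in cluster 14. With clusters weighted alike it was 0.73, and passed. Beside these values, macrophage and monocyte markers in mesenchymal cells summed to 109 and 332 CPM, higher for 12 of 12 markers, and neutrophil markers to 92.0 and 223 CPM, higher for 8 of 9; their part in the result was not tested. Ptgs2 UMIs per 100 UMIs of the neutrophil genes S100a8 and S100a9 were 217 and 93.8 in mesenchymal cells. The same measure was 2.69 and 3.65 in neutrophils, and 86.0 and 232 in macrophages and monocytes.

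Ptgfr, the prostaglandin F receptor, was the member that was lower over whole libraries, at 24.5 and 5.34 CPM. Mesenchymal cells held 97.3% and 89.6% of its UMIs. Their level was 61.5 (59.6 to 63.5) and 29.9 (27.4 to 32.6) CPM, a log2 ratio of -1.04 (-1.18 to -0.91). Its main carrier in the control was cluster 3, led by Col11a1 and Aspn, with 71.7% of the class's Ptgfr UMIs. That cluster was 35.4% of control and 8.41% of irradiated mesenchymal cells. Inside it Ptgfr was 119 and 73.7 CPM (-0.69), inside cluster 7 30.9 and 15.3 CPM (-1.01), and inside cluster 14 12.3 and 5.54 CPM (-1.15). Inside cluster 5 it was 32.7 and 43.5 CPM (0.41), under 1.5-fold. In cluster 27, of 32 and 37 cells, the log2 ratio was 0.57 (-0.19 to 1.36). The direction thus differed between clusters, with no cluster called higher. Without cluster 3 the class ratio was -0.28, and with clusters weighted alike it was -0.42, neither past 1.5-fold.

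Ptger4 in mesenchymal cells was 28.7 and 18.1 CPM (-0.67) and was lower in clusters 3 and 7 (-0.79 and -0.76); the class call was lost without cluster 3 (-0.32). Ptgs1 was 4.54 and 8.46 CPM (0.90), and did not pass at 2000 UMIs per cell (0.30). Ptger2, at 79 and 37 UMIs, was called higher at 0.74 and was not without its top cell (0.63). Hpgd did not pass at class level (16.4 and 20.6 CPM). Its highest level in this class was in cluster 27, of 32 and 37 cells led by Hpse2 and Igfbp3, at 172 and 99.5 CPM.

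**Figure D4:**
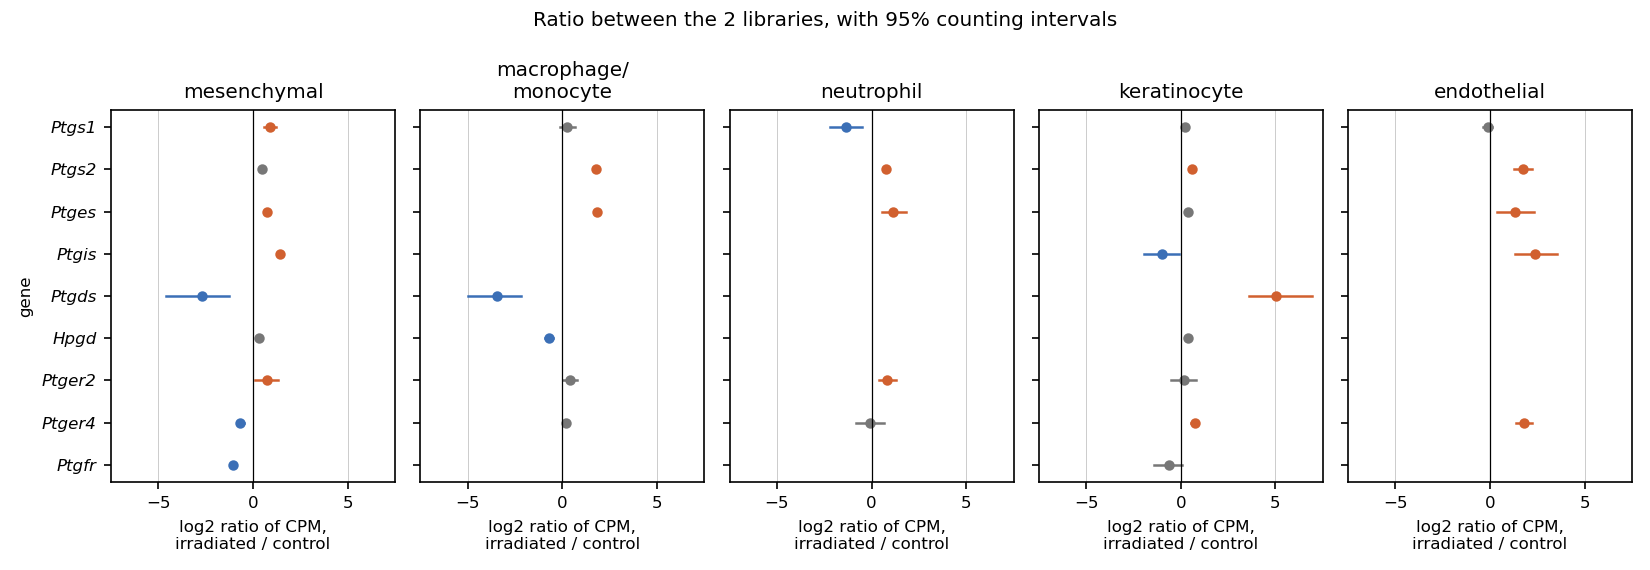
Log2 ratio of CPM, irradiated over control, for each gene with at least 20 UMIs in the 5 classes, with 95% counting intervals. Orange points were called higher, blue points lower and grey points neither; in macrophages and monocytes Ptgs2 (1.76) and Ptges (1.83) lie together above the rest.

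Keratinocytes were the main source of Ptgs1 in both libraries, with 78.1% and 79.2% of its UMIs, and its level there was 69.2 and 80.7 CPM (log2 ratio 0.22, not past 1.5-fold). The suprabasal cluster 11, with Krt1, Krt10 and Lor, was highest at 163 and 228 CPM. The cluster mix of keratinocytes also differed between the libraries: cluster 8 held 26.8% of control and 11.6% of irradiated keratinocytes, cluster 10 held 13.4% and 26.6%, and cluster 17 held 7.76% and 20.9%. Ptges was at 56.6 and 74.0 CPM (0.39) in the class and not called, but it passed 1.5-fold within clusters 8 (0.77), 10 (1.05) and 11 (0.74). Hpgd was at 23.4 and 31.0 CPM (0.40), also not called, and its clusters differed in direction, with log2 ratios of 0.82 in cluster 11, -1.45 in cluster 16 and -1.20 in cluster 21. Ptgs2 was called higher at 27.7 and 42.0 CPM (0.60). The call lies at the threshold, and was lost without the single top cell (0.56) or with no doublet removal (0.49). Within basal cluster 10, with Krt5 and Col17a1, Ptgs2 was 10.6 and 45.6 CPM (2.10), and in wound-type cluster 8, with Krt6a and Krt16, it was 50.6 and 92.4 CPM (0.87). Ptger4 was 9.24 and 15.3 CPM (0.73), and with clusters weighted alike 0.44. Ptgds was also called higher, mostly from 1 cell. In all, 3 of 9 genes were higher and 1 lower, against 7.23% and 7.16% of all genes, with a median of 0.39 beside -0.02.

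The 1 lower gene in keratinocytes was Ptgis, at 41 and 15 UMIs. In the control, 35 of the 41 UMIs lay in 10 cells, whose mesenchymal markers summed to 19800 CPM, against 687 CPM in the other keratinocytes. Ptgfr in irradiated keratinocytes lay in 8 cells, whose mesenchymal markers summed to 19300 CPM against 170 CPM.

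Endothelial cells expressed Ptgs1 at 49.2 and 45.2 CPM (-0.12, interval -0.35 to 0.10). Of 5 genes with enough UMIs, 4 were called higher and 0 lower, against 9.47% and 3.87% of all genes, with a median of 1.75 beside 0.01. Ptger4 was 7.34 (5.72 to 9.27) and 25.1 (21.1 to 29.6) CPM, a log2 ratio of 1.77 (1.35 to 2.21). It was spread over cells, with a UMI in 8.71% of control and 22.8% of irradiated cells, and this call held under each of the 12 alternatives. Ptgis was 1.05 and 5.41 CPM (2.37), with 29 of 30 irradiated UMIs in 10 cells. Mesenchymal markers in those cells summed to 327 CPM, against 481 CPM in the rest of the class.

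The other 2 endothelial calls sat in few cells that also carried transcripts of other types. Of 119 irradiated Ptgs2 UMIs, 106 lay in 10 cells. In these cells macrophage and monocyte markers summed to 1780 CPM and neutrophil markers to 2890 CPM, against 146 and 209 CPM in the rest, and their median depth was 32062 against 12653 UMIs. At 2000 UMIs per cell, 1.02% (0.332 to 2.36) of control and 2.22% (0.895 to 4.51) of irradiated endothelial cells had a Ptgs2 UMI. Ptges, at 17 and 25 UMIs, lay in 10 irradiated cells with keratinocyte markers at 10800 CPM against 237 CPM in the rest. It was -0.22 with 1 doublet threshold for both libraries and -0.29 with the looser cell filter. In pericytes, which had too few irradiated cells for a ratio, Ptgs2 was 3.64 and 39.3 CPM, with 128 of 143 irradiated UMIs in 10 cells whose macrophage and monocyte markers summed to 2340 CPM against 146 CPM. The part of these transcripts in the results was not tested.

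Hpgd, which inactivates prostaglandins, was called lower in macrophages and monocytes, at 20.4 and 12.4 CPM (-0.71, interval -0.93 to -0.49). It was lower in cluster 0, with class II genes and C1qa (26.7 and 14.4 CPM, -0.90), and 24.6 and 24.7 CPM in cluster 2, with Pf4 and Ccl8. In cluster 13 it was higher, at 9.29 and 18.1 CPM (0.96, interval 0.05 to 1.97). The class call was lost with clusters weighted alike (-0.38) and without cluster 12 (-0.54). At 2000 UMIs per cell, 0 of 50 control and 1 of 214 irradiated macrophages with a Ptges UMI had one of Hpgd, against 3.82% and 2.51% of cells without Ptges. The exact binomial upper bounds for cells with Ptges were 7.11% and 2.58%, and the intervals overlapped those of cells without Ptges in both libraries.

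The receptor with the broadest pattern was Ptger4. It was highest in dendritic cells, at 87.8 (74.0 to 103) and 127 (112 to 144) CPM, then in macrophages and monocytes at 45.2 and 51.1 CPM (0.18), where it was not called. Within that class it was lowest in cluster 12 in both libraries (14.2 and 23.7 CPM) and highest in cluster 0 (62.4 and 79.2 CPM). Cluster 9 was the 1 cluster of the class in which it was called higher, at 18.5 and 40.1 CPM (1.12, interval 0.61 to 1.65). Ptger2 was highest in neutrophils and, in the control, in T and NK cells (21.7 and 21.0 CPM, with overlapping intervals). In irradiated T and NK cells it was 8.96 CPM, from 17 UMIs. Among macrophage clusters it was highest in cluster 12, at 17.8 and 24.8 CPM. Ptgs1 in dendritic cells (44.8 and 80.4 CPM) lay in few cells, 72 of 73 control UMIs being in 10 cells, and dendritic markers there summed to 396 CPM against 1510 CPM in the rest.

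Unnamed clusters held 73.7% of control and 86.1% of irradiated Ptgds UMIs. Nearly all of these, 401 and 667 UMIs, were in a cluster of 23 control and 31 irradiated cells, left unnamed because melanocyte genes (Dct, Pmel, Tyrp1) and fat cell genes (Cfd, Car3) led it together. Its level there was 1530 and 1559 CPM, a log2 ratio of 0.03 (-0.15 to 0.21). Its 3 calls in named classes had most of their UMIs in 1 cell. In macrophages 40 of 42 control UMIs were in 1 cell, in mesenchymal cells 90 of 92 control UMIs, and in irradiated keratinocytes 76 of 93 UMIs. Melanocyte markers in the cells with the most Ptgds summed to 8980, 2640 and 1580 CPM in these 3 groups, against 1.43, 2.05 and 2.80 CPM in the rest. Without the top cell the macrophage and mesenchymal ratios changed sign, to 0.69 and 2.42.

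The other genes of the pathway were read from a list of 23 (phospholipases, synthases, carriers and receptors). Calls for this list, and for the leukotriene list that follows, are at class level only. Neither list was run by cluster or under the alternative settings used for the members. In mesenchymal cells 6 of 21 with enough UMIs were higher and 0 lower, against 11.9% and 7.25% of all genes, with a median of 0.22 beside -0.03. The largest ratios were those of 2 phospholipases with few UMIs, Pla2g5 (14 and 24 UMIs, 2.61) and Pla2g2e (48 and 66 UMIs, 2.29). Next came the prostacyclin receptor Ptgir (1.97 and 5.99 CPM, 1.61) and the prostaglandin carrier Slco2a1 (6.61 and 18.6 CPM, 1.49). Pla2g4a, a phospholipase at a higher level in these cells, was not called (63.7 and 59.4 CPM, -0.10). In macrophages and monocytes 1 of 18 was higher, the phospholipase Pla2g4a (60.5 and 101 CPM, 0.74), and 3 were lower, Cbr3 (-1.24), Prxl2b (-0.85) and Cbr1 (-0.70), against 6.17% and 11.8% of all genes, with a median of -0.25 beside -0.12. In neutrophils 0 of 11 were higher and 4 lower, Ptgr1 (-1.97), Cbr1 (-1.54), Pla2g4a (35.0 and 16.8 CPM, -1.07) and Akr1b3 (-0.91), against 5.67% and 19.5% of all genes, with a median of -0.44 beside -0.28. In keratinocytes 0 of 18 were higher and 1 lower (Pla2g2d, -0.70), against 7.23% and 7.16% of all genes, with a median of -0.12 beside -0.02. In endothelial cells 1 of 14 was higher (Pla2g4a, 0.68) and 0 lower, against 9.47% and 3.87%, with a median of 0.09 beside 0.01.

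Of a list of 14 lipoxygenase and leukotriene genes, neutrophils had 0 of 5 higher and 2 lower, where 5.67% and 19.5% of all genes were, with a median of -0.43 beside -0.28. Alox5ap, the partner protein of 5-lipoxygenase, was 843 and 473 CPM (-0.84), and Alox5 itself 62.1 and 34.4 CPM (-0.85). In macrophages and monocytes 2 of 8 were higher (Cysltr2, 1.37, and Ltc4s, 0.65) and 0 lower, beside 6.17% and 11.8% of all genes. Mesenchymal cells had 3 of 8 higher, led by Ltc4s (2.37), and 0 lower, beside 11.9% and 7.25%. Endothelial cells had 3 of 6 higher, led by Alox5ap (1.15), and 0 lower, beside 9.47% and 3.87%. In endothelial cells macrophage and monocyte markers summed to 153 and 244 CPM (11 of 12 higher) and neutrophil markers to 84.8 and 371 CPM (8 of 9 higher), and the sums in mesenchymal cells are those given with Ptgs2. Alox5ap was at 586 and 671 CPM in macrophages and monocytes. The part of these transcripts in the counts was not tested. Keratinocytes had 2 of 11 higher (Alox8, 1.79, and Cysltr1, 0.77) and 1 lower (Alox12e, -0.62), beside 7.23% and 7.16%.

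Genes most like each member were ranked by Pearson correlation over 19 class and library sums, among 7751 genes, as a description only, since sums of 1 library share depth and free RNA. Ptgs2 ran closest to Emilin2 (0.923), Bnip3 (0.919), Slc16a3 (0.917), Il1rn (0.916) and Tlr2 (0.898). Ptges ran closest to Mif (0.917), Tpi1 (0.903) and Pgam1 (0.887), and its list of 5 also held Pla2g4a (0.806). Ptgis ran with Scara5 (0.976), Sfrp4 (0.973) and Clec3b (0.971), and Ptgfr with Itga11 (0.987), Lrrc17 (0.985) and Lrrc15 (0.984). Ptger2 ran with Cd101 (0.922), Ptger4 with Cd74 (0.894), Hpgd with Sgpp1 (0.867) and Ptgs1 with Avpi1 (0.875). No gene passed 0.646 for Ptgds.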

How the data were processed

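Single-cell 3' libraries of 1 control and 1 irradiated sample were analysed from UMI counts per gene and barcode, deposited by the authors without normalisation. Per the submitters' processing notes the counts were made with Cell Ranger 5 on mm10 (5.0.1 per the file headers); annotation and strand settings are not given in the sources used here. Libraries held 180080740 (control) and 111753092 (irradiated) UMIs.

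Cells with at least 500 genes, 1000 UMIs and at most 10% mitochondrial UMIs were kept. Scrublet (scanpy 1.11.5) removed 529 control and 74 irradiated doublets, at score thresholds of 0.195 and 0.33. These were 5.725% and 1.029% of the filtered cells, where the expected rates were 7.39% and 5.75%. Both libraries were clustered together without integration from 2000 variable genes, 30 principal components and 15 neighbours (leidenalg 0.10.2, resolution 1.0). The members and pathway lists were kept out of those genes. Clusters were named from 20 marker lists; naming took 3 or more markers that reached 50 CPM and 2-fold over the median cluster, and 3 clusters stayed unnamed. Classes of 1 lineage were not treated as rivals, and tendon and cartilage clusters count as mesenchymal, both set after the clusters were seen.

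UMIs were summed per class and library. Levels have exact Poisson intervals, shares Clopper-Pearson intervals and ratios exact conditional intervals, all at 95% and for counting error only. Cells are not replicates, so no p-value was computed. Shares of cells used 2000 UMIs per cell, leaving out 643 control and 403 irradiated cells below that. The ratio and its call rule were tested on simulated counts with Poisson error only. The intervals assume that same error, so the simulation cannot show how they behave where UMIs lie in few cells. The named genes were the 9 members and, of each pathway list per class, up to 4 called genes with the largest ratios, plus the 5 genes most correlated with each member at log2(CPM + 10). Marker levels in the 10 cells with the most UMIs of a member were added after seeing the data. The members and lists were chosen with earlier results of these data known. Promoters are from a RefSeq table (GRCm38.p6). Alternatives changed the cell filter, doublet calling, CPM total, averaging, depth, cluster weights, resolution, clustering genes, UMI minimum and fold. They were run for the 9 members only.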

Additional observations from a re-analysis of the deposited data

How the results depend on the processing

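Of 23 pairs of gene and class called higher or lower, 6 kept their call under every alternative run pair by pair, and 17 lost it under at least 1. The 6 were Ptgs2 and Ptges in macrophages and monocytes, Ptges and Ptgis in mesenchymal cells, Ptger4 in endothelial cells and Ptgds in keratinocytes. The Ptgds call rested mostly on 1 cell. The higher fold and the lower UMI minimum were not part of this tally and were only counted over all pairs. Ptges in mesenchymal cells, at 1.69-fold, does not pass a fold of at least 2. Leaving out each cluster of a class and the cell with the most UMIs of a gene were chosen after seeing the data. The 16 pairs called higher became 10 at 2000 UMIs per cell and 9 at a fold of at least 2. The 7 called lower became 4 with the stricter cell filter, 3 with clusters weighted alike, 3 at 2000 UMIs per cell and 4 at a fold of at least 2. Signs changed for Ptgds in macrophages and monocytes, from -3.44 to 0.80 (stricter filter), 1.03 (no doublet removal), 0.69 (without the top cell) and 1.05 (without cluster 9). They changed for Ptgds in mesenchymal cells, from -2.69 to 3.53 (stricter filter), 1.26 (mean of each cell's CPM), 2.42 (without the top cell) and 3.18 (without cluster 5). Ptges in endothelial cells went from 1.34 to -0.29 (looser filter) and -0.22 (equal doublet threshold), and Ptgs1 in neutrophils from -1.36 to 0.02 at 2000 UMIs per cell. Except for the cells and clusters left out, the cause was not tested. Leading levels moved beyond their counting interval in 71 of 216 alternatives, shares of cells in 30 of 36 and shares of UMIs in 17 of 18. With 1 library per group, variation between mice is not measured, and low counts limit Ptger2, Ptgs1 in neutrophils and Ptgis outside mesenchymal cells. No paired analysis was possible because each group has 1 library.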
